A study of Sus scrofa with 6 samples.

Results

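Sodium/calcium exchangers are membrane transporters that use the sodium gradient to carry calcium across a membrane, most often away from the cytosol. The SLC8 genes encode exchangers driven by sodium alone, the SLC24 genes encode exchangers that also carry potassium out with the calcium, and SLC8B1 encodes the sodium/calcium exchanger of the mitochondrial inner membrane. Such exchangers clear calcium from excitable cells and move it across calcium-transporting epithelia, beside the ATP-driven calcium pumps. The genes followed here were SLC24A4, SLC8A3, SLC8A1, SLC8B1 and SLC24A3. They were taken by symbol from the deposited gene table, and all 5 were found among its 14262 genes. The group was chosen by the values of SLC24A4 and SLC8A3, selected on their difference between high and low prolific sows, and the other 3 were added as relatives.

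The tissue was endometrium, the lining of the uterus, collected from Erhualian sows (Sus scrofa, a Chinese pig breed) on day 12 of gestation and sequenced from total RNA. The 3 sows of the first group were labelled high prolific and had parities, the number of litters borne, of 5, 8 and 8 (high 1, high 2 and high 3). The 3 sows of the second group were labelled low prolific and had parities of 7, 7 and 5 (low 1, low 2 and low 3). The title of the series names calcium ion concentration and litter size as what set the sows apart, the labels give only the prolificacy class, and no treatment is named for either group.

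Each value below is a normalized read count from the deposited table. How the authors normalized is not stated in the labels and the values are not whole, so a value may be a count adjusted to a common library size and need not be proportional to reads. The columns summed to between 22663087 (high 2) and 24270245 (low 2). The normalization may have brought these totals close together, so the sequencing depth behind a value is unknown. Along the first principal component of the log2 values, with 43.6% of the variance, low 2 and low 3 stood apart at -43.5 and -44.2, while the other 4 libraries lay between 1.52 and 40.9. Endometrial epithelium and stroma were both represented, with EPCAM between 7896 and 11765 and the collagen gene COL3A1 between 202887 and 304833 in all 6 libraries. With limma on log2(value + 1) and Benjamini-Hochberg adjustment at 0.05, 0 of 14262 genes (0%) were called, so no exchanger was. Without adjustment, p was under 0.05 for 546 genes that were higher (3.83%) and for 583 that were lower (4.09%) in the high prolific group. Because this contrast chose the exchangers, their group differences are given as descriptions with no p of their own.

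SLC24A4 encodes NCKX4, a potassium-dependent exchanger of the plasma membrane known from olfactory neurons, brain and enamel-forming cells. It was at 29349, 21838 and 24728 in high 1, high 2 and high 3, and at 12049.8, 9697 and 8568 in low 1, low 2 and low 3. The groups did not overlap: the lowest high prolific sow was 1.81 times the highest low prolific sow. The means were 25305 ± 3788.5 and 10105 ± 1776 (SD, n = 3), a log2 fold change of 1.33 ± 0.18 (moderated SE) or 2.51-fold. A larger log2 fold change was seen in 86 other genes. The values of this 1 gene made up 0.124%, 0.0964% and 0.108% of the column totals of the high prolific sows and 0.0522%, 0.0400% and 0.0356% of those of the low prolific sows.

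SLC24A3 encodes NCKX3, the broadly expressed potassium-dependent exchanger of brain and smooth muscle. Its values were 242, 151 and 113 in high 1 to high 3 and 74.8, 96.8 and 136 in low 1 to low 3. Here low 3 lay above high 3, and the groups overlapped. The means were 169 ± 66.3 and 103 ± 31.1 (SD, n = 3), a log2 fold change of 0.68 ± 0.35 (SE). That value rested partly on high 1: without it the log2 fold change was 0.39, and without both low 2 and low 3 it was 1.09. SLC24A3 was also the most variable of the 5 exchangers within groups. Its residual SD was 0.49 log2 units, larger than that of 83.8% of all genes, against 0.22 to 0.25 in the other 4 exchangers.

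SLC8A3 encodes NCX3, the potassium-independent exchanger best known from brain and skeletal muscle. It was at 301, 293 and 202 in high 1 to high 3 and at 108, 89.1 and 96.7 in low 1 to low 3. As with SLC24A4, each high prolific sow lay above each low prolific sow, by a factor of at least 1.87. The means were 265 ± 54.7 and 97.9 ± 9.50 (SD, n = 3), a log2 fold change of 1.41 ± 0.21 (SE) or 2.66-fold, with 72 genes of the table above it. The spread of this gene lay mostly among the high prolific sows, with a coefficient of variation of 20.6% there and 9.70% among the low prolific sows.

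SLC8A1 encodes NCX1, the widely expressed exchanger that dominates calcium efflux in heart muscle. It was at 733, 731 and 832 in high 1 to high 3 and at 845, 624 and 945 in low 1 to low 3. The low prolific sows held both the lowest and the highest value, so the high prolific sows lay inside their range. With means of 765 ± 58.0 and 805 ± 165 (SD, n = 3) the log2 fold change was -0.05 ± 0.17 (SE). It was 0.07 without low 3 and -0.23 without low 2, so its sign depended on single sows.

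SLC8B1 encodes NCLX, which returns calcium from mitochondria to the cytosol. Its values were 385, 412 and 377 in high 1 to high 3 and 405, 590.2 and 419 in low 1 to low 3. Apart from low 2 all sows lay between 377 and 419. The means were 391 ± 18.4 and 471 ± 103 (SD, n = 3), and the log2 fold change of -0.25 ± 0.17 (SE) was -0.07 without low 2.

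**Figure D1:**
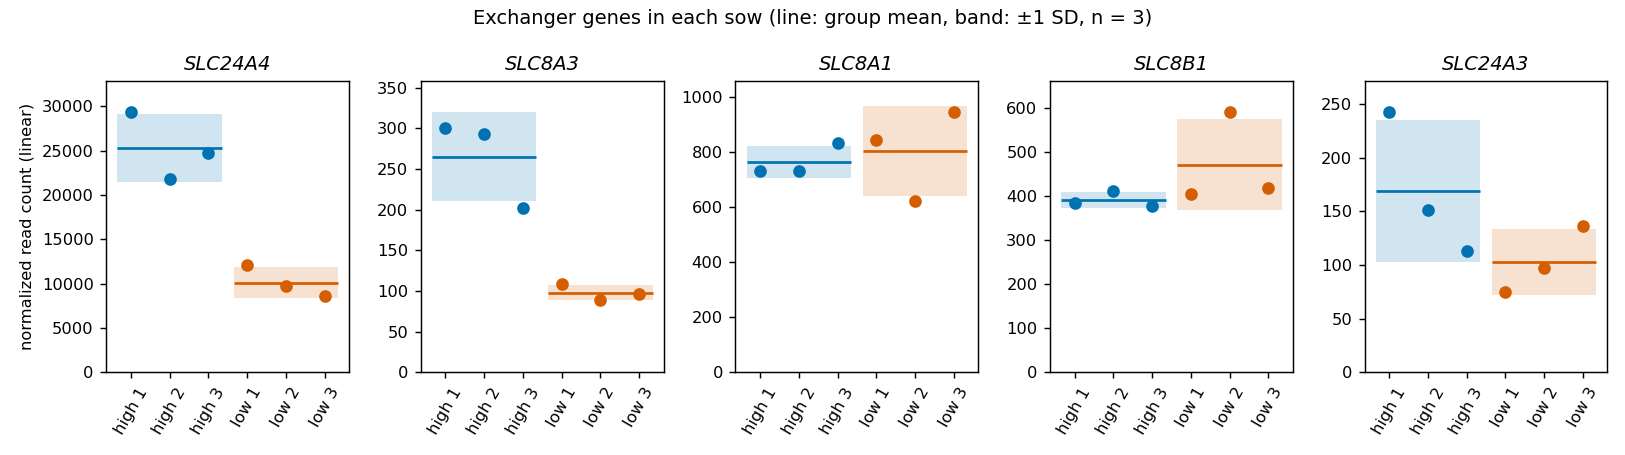
Normalized read counts (linear axes from 0, 1 panel per gene) in the 3 high prolific sows (blue) and the 3 low prolific sows (orange). Points are single sows, lines group means and bands ±1 SD. The groups are apart for SLC24A4 (means 25305 and 10105) and SLC8A3 (265 and 97.9) and overlap for SLC8A1, SLC8B1 and SLC24A3.

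In 2 of the 5 exchangers all high prolific sows lay above all low prolific sows, an arrangement found in 7.18% of all genes, and in 0 of 5 they lay below, as 6.32% of all genes did. Since the contrast itself chose the genes, nothing is read from that count. The order of the sows differed even between the 2 genes. SLC24A4 ran high 1, high 3, high 2, low 1, low 2, low 3 from the highest, and SLC8A3 ran high 1, high 2, high 3, low 1, low 3, low 2. High 1 was thus the highest sow for both genes and for SLC24A3, and low 1 the highest low prolific sow for SLC24A4 and SLC8A3 but the lowest of all 6 for SLC24A3.

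Parity was not balanced between the groups, as parity 8 occurred among the high and parity 7 among the low prolific sows, while each group had 1 sow of parity 5. Between the 2 sows of parity 5, high 1 had 3.43 times the SLC24A4 value of low 3 (29349 against 8568). For the other sows the mean was 23283 at parity 8 and 10874 at parity 7, a ratio of 2.14. For SLC8A3 the same ratios were 3.11 and 2.51. As each high prolific sow lay above each low prolific sow in both genes, these ratios had to be above 1. Sows of parity 8 and 7 cannot separate parity from group, and the part of parity was not tested. With parity as a covariate the log2 fold change was 1.35 ± 0.19 (SE) for SLC24A4 and 1.45 ± 0.23 for SLC8A3, and that of SLC24A3 went from 0.68 to 0.89 ± 0.22.

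Both exchangers lay higher in high prolific sows under each alternative that could be run. Because their groups did not overlap, leaving out sows could not have reversed that sign. A changed filter, variance model or replicate block leaves the log2 fold change as it is. The alternatives therefore give a range of the value and do not test the difference. Over 17 alternatives the log2 fold change of SLC24A4 ran from 1.06 to 1.46, and over 16 that of SLC8A3 from 1.27 to 1.59. The lowest value of either gene came from leaving out both low 2 and low 3, the libraries that stood apart, which leaves low 1 as the only low prolific sow. In SLC24A4, low 1 was also the closest of its group to the high prolific sows.

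**Figure D2:**
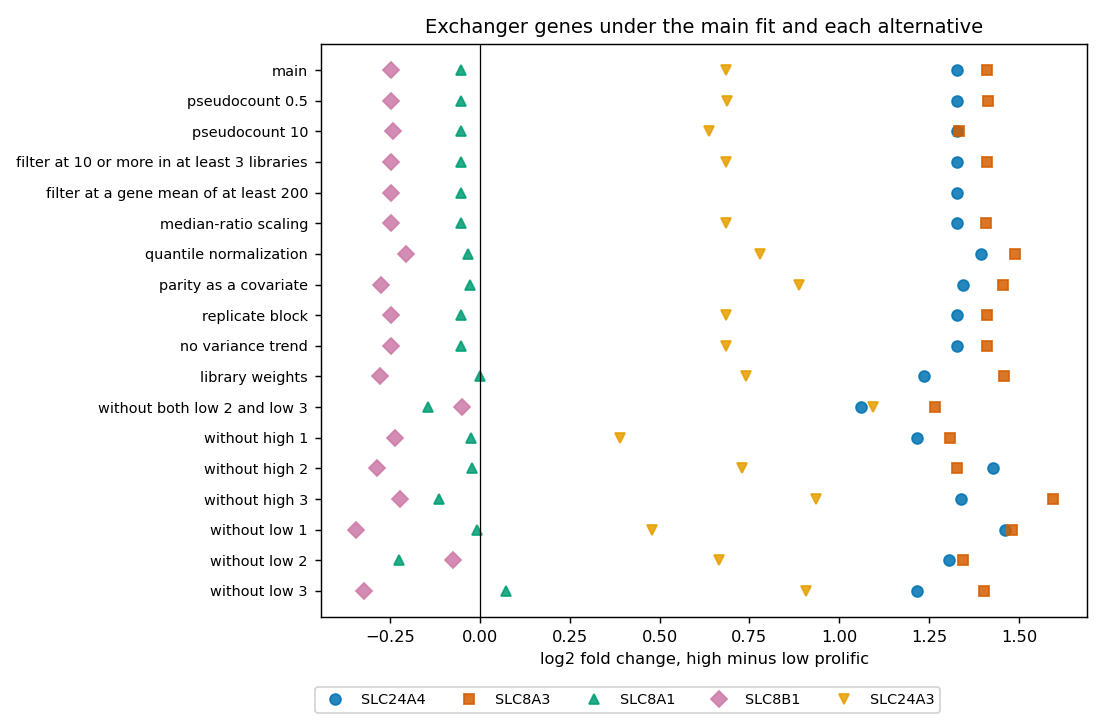
Log2 fold change (high minus low prolific, horizontal axis) of the 5 exchangers in the reported fit (main) and under each alternative (vertical axis); 1 marker per gene, with SLC8A3 and SLC24A3 under the filter at a mean of 200 left out because they do not reach it. SLC24A4 and SLC8A3 stay between 1.06 and 1.59 in all of them, while SLC8A1 lies between -0.23 and 0.07.

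The table also held the other 4 genes of the 2 families, so that 9 SLC8 and SLC24 genes were measured. SLC24A2, the NCKX2 exchanger of cone photoreceptors and neurons, was at 644, 502 and 337 in high 1 to high 3 and at 321, 262 and 492 in low 1 to low 3. Again high 1 was the highest sow, and the groups overlapped through low 3. Its log2 fold change of 0.46 ± 0.32 (SE) was 0.25 without high 1 and 0.26 without low 2, and 0.72 without either high 3 or low 3. SLC24A1, the exchanger of rod photoreceptors, lay between 78.4 and 105 in high and between 55.2 and 97.7 in low prolific sows. SLC24A5, which works in pigment-forming organelles, lay between 29.3 and 45.7 in high and between 42.9 and 52.7 in low prolific sows. SLC8A2, the NCX2 exchanger of brain, was at 38.3 ± 11.6 and 33.2 ± 15.6 (SD, n = 3). Of these 4 genes 0 passed limma at an adjusted or an unadjusted p under 0.05, and their groups overlapped in each.

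**Figure D3:**
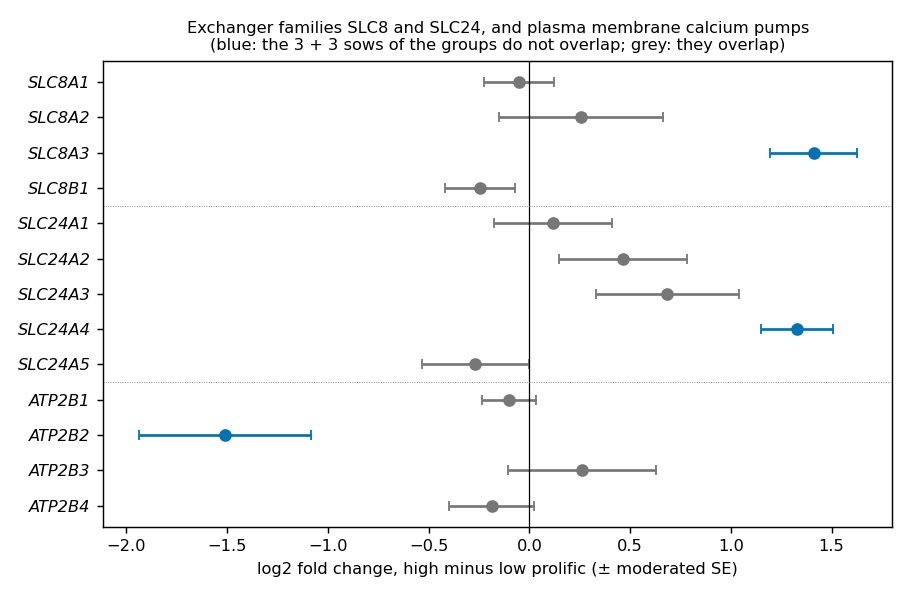
Log2 fold change (high minus low prolific) with its moderated SE for the 9 measured SLC8 and SLC24 genes and the 4 plasma membrane calcium pumps (dotted lines divide the families). Blue points mark genes whose groups of 3 sows do not overlap: SLC8A3 (1.41), SLC24A4 (1.33) and, on the other side of 0, ATP2B2 (-1.51).

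The exchangers work against gradients and beside other calcium carriers, and 8 lists of such genes held 65 measured genes of 87 listed. Of these 30 lay above and 35 below 0, with a median log2 fold change of -0.05, against -0.0024 over all genes. The groups did not overlap in 2 genes that were higher and 7 that were lower, 13.8% of the 65. Among all genes 7.18% were higher and 6.32% lower in this way, so nothing is read from that count. Limma called 0 of the 65 at an adjusted p under 0.05. At an unadjusted p under 0.05 there was 1 gene higher and there were 6 lower in high prolific sows, 10.8% of the 65 in all, against 3.83% higher and 4.09% lower among all genes. With single sows left out, the limma count of 7 genes at an unadjusted p under 0.05 became 5 to 13. It was 13 without low 1 and 12 without low 3. Over all genes the limma count at that threshold, 1129 as reported, became 466 to 1872 in the same fits. It was 1872 without low 1 and 1379 without low 3.

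The sodium pump sets the sodium gradient on which all exchangers run. Of its 15 listed subunits and regulators 5 matched a row, and 3 lay above and 2 below 0. The beta subunit ATP1B1 spanned 2336 to 7269 in the high and 1089 to 4935 in the low prolific group. FXYD3, a regulator of the pump, spanned 503 to 2148 and 1179.9 to 2905, in that order. For ATP1B1 the log2 fold change of 0.87 was 0.47 without high 3, 0.34 without low 3 and 1.43 without low 1, and it turned to -0.25 when both low 2 and low 3 were left out.

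Potassium channels of the inward rectifier and two-pore families pass potassium down the gradient that the sodium pump builds and hold the membrane potential. SLC24 exchangers draw on the same gradient. Of 16 listed genes 8 matched a row, with 3 above and 5 below 0. KCNK1, a two-pore channel of epithelia, was at 2103, 1103 and 1393 in high 1 to high 3 and at 2235, 3637 and 2882 in low 1 to low 3, so that all high prolific sows lay below (log2 fold change -0.95 ± 0.28, SE, and -0.60 without both low 2 and low 3). KCNJ14 went the other way, at 68.5 ± 19.0 against 38.3 ± 1.56 (SD, n = 3), and its groups did not overlap either. Neither passed limma over all genes (both adjusted p = 0.619). KCNK5 and KCNK6, of the same two-pore family, overlapped between the groups.

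The plasma membrane calcium pumps ATP2B1 to ATP2B4 share the task of calcium efflux with the exchangers. ATP2B1, the widely expressed pump, was at 4065, 3610.4 and 3234 in high 1 to high 3 and at 3517, 3802 and 4370.5 in low 1 to low 3, with overlapping groups. ATP2B4, likewise widely expressed, lay between 4185 and 4906 in high and between 3804 and 6548 in low prolific sows. ATP2B2, known from hair cells and neurons, was at 37.4, 25.5 and 27.3 in high 1 to high 3 and at 51.5, 152 and 82.0 in low 1 to low 3. It was thus lower in each high prolific sow, 2.85-fold on average (log2 fold change -1.51 ± 0.43, SE, limma adjusted p = 0.619), and -0.77 without both low 2 and low 3.

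Mitochondrial calcium uptake is the counterpart of SLC8B1. Of 15 listed genes 13 matched a row, and 8 lay above and 5 below 0 (median log2 fold change 0.05). VDAC1, the main channel of the outer membrane, lay between 3377 and 3751 in high and between 3539 and 6790.1 in low prolific sows, with low 2 the highest as in SLC8B1. GHITM and LETM1, of the inner membrane, overlapped between the groups. MCUB, a subunit that restrains the uniporter, was at 214, 209 and 232 in high 1 to high 3 and at 279, 403 and 372 in low 1 to low 3. Its groups did not overlap, with a log2 fold change of -0.67 ± 0.18 (SE) that did not pass limma (adjusted p = 0.619). The uniporter pore itself, MCU, named here after its values were seen, overlapped at 708 to 1077 in low and 1005 to 1379 in high prolific sows. The log2 fold change of MCUB was -0.35 without both low 2 and low 3.

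Of 14 listed proteins that anchor or regulate the plasma membrane exchangers 12 matched a row, with 3 above and 9 below 0 (median log2 fold change -0.13). PRKCE and PRKCA encode protein kinases C, a class of kinases that modulates exchange. PRKCE was at 345, 376 and 475 in high 1 to high 3 and at 648, 1057 and 679 in low 1 to low 3, lower in all high prolific sows (log2 fold change -0.97 ± 0.23, SE, limma adjusted p = 0.619). PRKCA was at 431 ± 74.2 against 572 ± 66.0 (SD, n = 3), also without overlap. In the whole list 3 genes were lower and 1 was higher without overlap, against 6.32% and 7.18% of all genes. CAV1, the caveolar scaffold protein, was at 4362 ± 883 against 5705 ± 364, with high 2 inside the low prolific range. ANK2, the ankyrin that anchors NCX1 to the membrane, was at 9170.1, 13578 and 9188 in high 1 to high 3 and at 6725, 5457 and 12678 in low 1 to low 3, with low 3 above both high 1 and high 3. CAPN2, a calcium-activated protease, overlapped too, with low 2 the highest sow.

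Calcium transport into the endoplasmic reticulum and Golgi was measured in 6 of 6 listed genes, with 2 above and 4 below 0, all with overlapping groups. ATP2A2, the common pump of the endoplasmic reticulum, lay between 7444 and 8027 in high and between 7795 and 10463.5 in low prolific sows. ATP2C1, the Golgi pump, lay between 6314 and 13651 in high and between 6081 and 11598.5 in low prolific sows. TMEM165, a Golgi cation exchanger, lay between 1374 and 2289.7 in high and between 1033 and 1541 in low prolific sows. Of the 13 sodium/proton and sodium/bicarbonate exchangers that matched a row, out of 14 listed, 7 lay above and 6 below 0 and 0 passed limma at an adjusted or an unadjusted p under 0.05. SLC9A4, a sodium/proton exchanger, spanned 938 to 2346 in the high and 325 to 1124 in the low prolific group, and SLC9A8 and SLC4A7 overlapped as well. In the whole list of 13 genes 1 was lower without overlap, as 6.32% of all genes were.

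**Figure D4:**
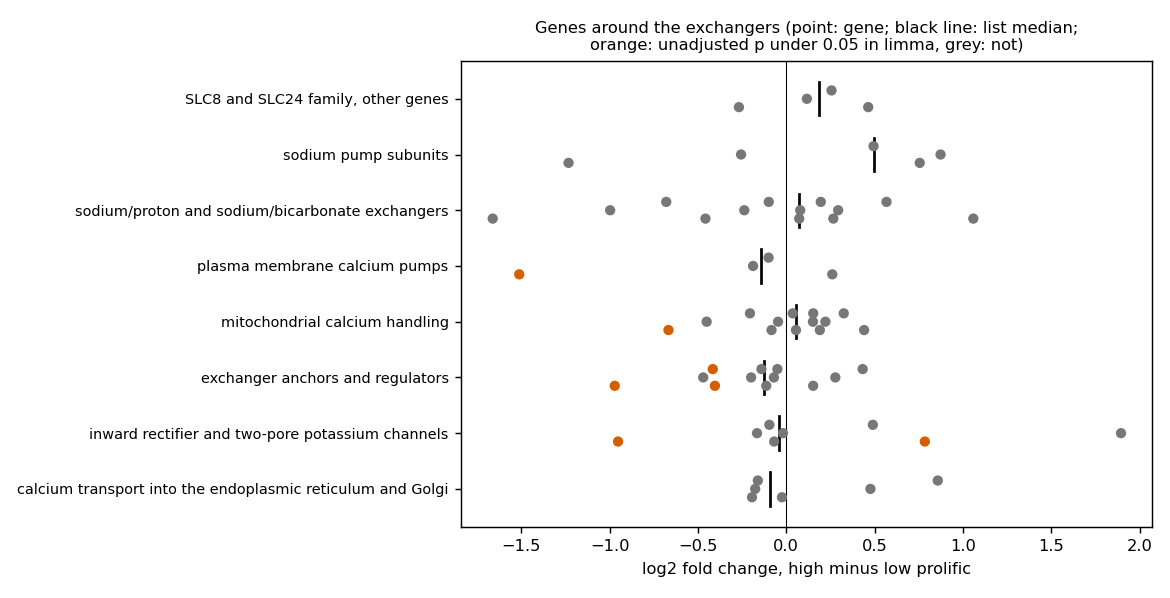
Log2 fold change (high minus low prolific, horizontal axis) of each measured gene (points) in the 8 lists around the exchangers (vertical axis), with list medians as black lines. Orange points are the 7 genes at an unadjusted p under 0.05, 1 above and 6 below 0, and none of the 65 passed after adjustment over all genes.

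These were bulk samples, in which fewer cells of a type and less RNA per cell cannot be told apart. The labels do not say which cells carry SLC24A4 or SLC8A3, so marker lists stand beside them. Of 7 smooth muscle markers that matched a row 4 (ACTA2, ACTG2, DES and CNN1) were lower in each high prolific sow than in each low prolific sow, as 6.32% of all genes did. The summed level of the list overlapped, at 21172 to 28008 in high and 21128 to 30554.5 in low prolific sows, and was carried by MYH11, between 11627 and 21899 in high and between 7666 and 16882 in low prolific sows. The list score, the mean over its genes of the log2 value less the mean of the gene, did not overlap, at -0.82 to -0.0064 in high and 0.21 to 0.57 in low prolific sows. Epithelial markers summed to between 59609 and 65670 in high and to between 44994 and 70782 in low prolific sows. Low 2 and low 3 had the 2 lowest sums. Of the 6 markers that matched a row 5 lay above and 1 (CDH1) below 0, with a median log2 fold change of 0.32. CDH1 was lower without overlap, and the groups overlapped in the other 5. Stromal markers summed to between 507947 and 692882 in high and to between 601230 and 813387 in low prolific sows, with 2 of 8 (PDGFRB and LUM) lower without overlap. Of 5 endothelial markers PECAM1 alone was lower without overlap, and the sums were 9190 to 13751 and 11578 to 20937. Of 8 neuronal and glial markers 3 matched a row, and they overlapped, with sums of 123 to 295 and 183 to 590.4. In 2 immune lists the summed levels did not overlap. Of 7 neutrophil markers 4 matched a row (S100A8, S100A12, CSF3R and MMP8). They summed to between 276 and 9139 in high and between 11666 and 23295 in low prolific sows, although each gene overlapped. MMP8 carried the sum of low 1, at 11243.5 there with S100A8 at 85.2, and that of high 3, at 8703. CSF3R went the other way, with a log2 fold change of 0.66, while the other 3 lay below 0. The score of that list overlapped, with high 1 at 0.87 above low 1 at -0.28, high 2 at -4.44 and low 2 and low 3 at 2.07 and 2.08. The 6 of 7 T and NK cell markers summed to between 757 and 1105 in high and between 690 and 748 in low prolific sows. CD2 alone was higher without overlap, as 7.18% of all genes were. Of the 6 markers 5 lay above 0, among them NKG7 at 0.06, and GNLY lay below (log2 fold change -0.41). The list scores were -0.06 to 0.36 in high and -0.21 to -0.08 in low prolific sows. Sums of the macrophage, red blood cell and ciliated cell lists overlapped. No matched marker was at 0 in any library. The part of these cell types in the exchanger values was not tested.

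For each exchanger the genes with the most similar course over the 6 sows were sought by Pearson's r of log2 values among 11332 other genes. For SLC24A4 they were DCAF11 (r = 0.986), ZNF428 (0.984) and ZNF777 (0.982), and PRICKLE2 ran most against it (-0.983). Their own differences were small, with log2 fold changes of 0.17, 0.23 and 0.19 for the first 3. For SLC8A3 the closest were CCDC122 (r = 0.989), MSRB2 (0.980) and SMARCAL1 (0.980), and TNFAIP3, the NF-kappaB inhibitor, ran most against it (-0.991). MSRB2, a mitochondrial methionine sulfoxide reductase, was at 483, 515 and 334 in high 1 to high 3 and at 239, 199 and 248 in low 1 to low 3. An r above 0.9 was reached by 70 genes with SLC24A4 and by 121 with SLC8A3, while r between the 2 exchangers was 0.947. The groups stand apart in both genes, and an r over the 6 sows includes that gap.

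The other 3 exchangers followed different genes. SLC8A1 ran closest to UCHL3 (r = 0.987), SLC16A3 (0.973) and CD47 (0.973) and most against PRRG2 (-0.983). SLC8B1 ran closest to NELFA (r = 0.996), STAT4 (0.996) and TGDS (0.992), and CHL1 ran most against it (-0.990). In each of these 3 genes, as in SLC8B1, low 2 was the highest sow, with STAT4 at 343 there and between 56.2 and 88.0 in the rest. SLC24A3 ran closest to SPON1 (r = 0.981), TCEAL1 (0.980) and C6orf52 (0.977) and most against SEPTIN6 (-0.991). C6orf52 was at 3358 in high 1 and 770 to 1939 elsewhere, so high 1 led there as in SLC24A3. All these r are descriptions over the same 6 libraries, with no p.

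By position, genes beside the exchangers were compared, 2 on each side in the RefSeq gene order of Sscrofa11.1, of which 13 of 20 matched a row of the table. The groups overlapped in 12 of these 13, and NAA20, near SLC24A3, was the exception (2249 ± 50.5 against 2039 ± 118, SD, n = 3). Among all genes 7.18% were higher and 6.32% lower without overlap, so nothing is read from that count. Next to SLC24A4, CPSF2 was at 2051 ± 20.1 against 1980 ± 305 and RIN3 at 446 ± 102 against 481 ± 111 (SD, n = 3). Their log2 fold changes were 0.06 ± 0.13 and -0.11 ± 0.23 (SE), against 1.33 for SLC24A4 between them. Beside SLC8A3, SMOC1, a secreted calcium-binding matrix protein, was at 3797, 10377 and 8511 in high 1 to high 3 and at 5801, 3633 and 1805 in low 1 to low 3. Its log2 fold change of 1.05 ± 0.53 (SE) was the highest of the 13 neighbours, against 1.41 for SLC8A3. The SMOC1 groups overlapped, as high 1 lay within the low prolific range, while SLC8A3 was highest in high 1. No other neighbour of SLC8A3 matched a row.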

How the data were processed

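Endometrial RNA of 3 high and 3 low prolific sows was compared. The deposited table gives normalized read counts per gene, a signal that is neither whole nor scaled to one total per column. Subread 1.6, featureCounts and edgeR are named as the authors' tools, per the submitters' processing notes. What each tool did, and the normalization, genome build, annotation and strand setting, are not given in the sources used here. No coordinates are printed, and reads of overlapping or antisense genes cannot be told apart. Whole reads were not recovered, so no count model or counting interval was used. Because gene lengths in the counting are unknown, differences in level between genes are not read as results. List sums, shares of column totals and the choice of listed genes by mean do set values of different genes together, with that limit. Low genes had been removed before deposit (smallest gene mean 17.6). Ensembl identifiers matched a symbol in 11977 of 14262 genes.

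High minus low prolific was tested with limma 3.58.1 (R 4.3.3) and log2(value + 1) as input, with robust moderation, a variance trend, two-sided tests and Benjamini-Hochberg adjustment over all genes at 0.05. Fold changes are on that scale, which understates low genes. The fit was tested on simulated data. Alternatives changed the pseudocount, filter, scaling, covariates, variance model, weights or libraries used.

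The exchangers, gene lists and tests were chosen with earlier results of these data known. Named genes were, per exchanger, the 3 most similar genes and the most opposed one (mean of at least 50) and, per list, the 3 of highest mean and those at an unadjusted p under 0.05. SLC8A2, MCU, neighbouring genes and markers were named after their values were seen. No sequences were used. A result on 1 gene is not reported here.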

Additional observations from a re-analysis of the deposited data

How the results depend on the processing

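The log2 fold changes of the 5 exchangers were recomputed under up to 17 alternatives. Leaving out both low 2 and low 3 moved that of SLC24A4 from 1.33 to 1.06 (the lone low prolific sow is then assumed to vary like the rest), and the unadjusted count of genes to 631; the cause was not tested. With single sows left out, SLC24A4 lay between 1.22 and 1.46, SLC8A3 between 1.31 and 1.59, SLC8A1 between -0.23 and 0.07, SLC8B1 between -0.35 and -0.07 and SLC24A3 between 0.39 and 0.93. In the same fits limma called 0 to 4 genes at an adjusted p under 0.05, 4 without low 1, 1 without low 2 and 0 otherwise, with no exchanger among them, and 466 (without high 2) to 1872 (without low 1) genes at an unadjusted p under 0.05, with 632 without low 2, against 1129 as reported. With the label number as a replicate block the unadjusted count was 615. The log2 fold changes cannot move in that fit, because each number held 1 high and 1 low prolific sow. Deviations of same-numbered sows correlated at -0.38, -0.16 and -0.36, and 0 of 6 sows correlated best with their own number. SLC8A1 turned sign without low 3 and with library weights (0.00034). SLC8A3 and SLC24A3 have no value under the filter on means of 200 or more, which they do not reach. Without known depth, the counting error of low values such as those of SLC8A3 could not be given.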
